A study of Mus musculus with 2 samples.

Results

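The Wnt genes described here are 41 genes in 6 classes: 17 Wnt ligands, 10 Frizzled receptors, the receptors Ror1, Ror2 and Ryk, 5 secreted Frizzled-related antagonists, 4 antagonists of the Dickkopf and Wif1 kind, and the feedback targets Axin2 and Lef1. They were taken by gene name and account for 84 of 45037 non-control probe sets and 41 of 18193 named genes on the arrays. RNA came from microdissected carotid arteries of ICR mouse embryos at stage E13.5, with segments from 22 embryos pooled per the design text. One pool held internal and the other external carotid arteries, with no treatment or genetic change named in the labels for either, and each pool was read on 1 expression array. Both pools went through a pair of amplification rounds from the poly-A tail, so signals favour the 3' ends of transcripts.

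Wnt proteins are secreted, lipid-modified signals. Bound to a Frizzled receptor and an Lrp co-receptor they stabilise beta-catenin, which joins Tcf/Lef factors on DNA and switches on genes such as Axin2, itself a brake on the pathway. Bound to Ror or Ryk they can act without beta-catenin on cell polarity and on the steering of growth cones, and Wnt5a is known to promote branching of sympathetic axons. In arteries, Wnt signals act on endothelial and mural cells and on the mesenchyme around them.

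With 1 array per pool there is no spread between embryos or dissections, and no test of any difference was possible. Ratios put external over internal signal and are given as log2 values, and each array's median signal, 47.5 for internal and 52.3 for external, served as a floor. Where 1 signal lay under its floor the fold is a lower bound, and where both did no fold is given. Ratios at different probe sets of the same gene, over 4315 genes, had a pooled standard deviation of 0.34 on the log2 scale, or 1.26-fold. That value is the yardstick for size used below and covers probe differences only. Signals are read from each gene's brightest probe set and are compared between pools, never between genes as amounts of RNA. In a pool of tissue, fewer cells of a type and less RNA per cell cannot be told apart.

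The labelled tissue was checked against its markers. All 9 smooth muscle markers and 9 of 10 endothelial markers had a ratio or bound, with medians of 0.30 and 0.07. Of the smooth muscle markers 5 were above 0 and 4 below. Des, at -2.44, was among the latter and is also on the skeletal muscle list. Summed smooth muscle signal ran against the median, at 20320 internally and 17358 externally. Endothelial signal summed to 4592 internally and 5478 externally. The pools differed more in markers of neurons and of skeletal muscle, and where that RNA came from was not tested. General neuronal markers favoured the external pool by 2-fold or more in 11 of 13 with a value, with a signal summed over the list of 14 genes of 2949 internally and 12493 externally. Of 9 sympathetic neuron markers 8 were so. Skeletal muscle markers went the other way by that much in 13 of 14, with a summed signal of 26978 internally and 5825 externally. None of these markers was listed at 0 in either pool.

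Of the Wnt genes, 1 passed a 2-fold difference between the arteries. Of 41 genes, 32 had a ratio, 2 had a bound and 7 lay under both floors. Past 2-fold towards external carotid were 0 of the 34 genes with a value, where 2.1% of all 12408 genes with a value were (261 genes). Past 2-fold towards internal carotid was 1, Wnt5b, where 1.47% of all genes were (183 genes, a split that was 202 and 233 after centring). Thus 2.94% of these genes passed 2-fold in either direction against 3.58% of all genes, a share near the background at this threshold. At 1.5-fold, 8 of the Wnt genes passed towards external and 5 towards internal carotid. The share of all genes at 1.5-fold was not counted, so these counts have no background beside them.

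The median log2 ratio of the 34 genes was 0.17, beside 0.06 over all genes with a value. Values above 0 were had by 24 of 34 genes (70.6%) and by 56.1% of all genes. The split depended on scaling, with 19 of 34 above 0 after centring and 21 after quantile normalization or loess. Of all genes, 46.7% were above 0 after centring, 52.8% after quantile normalization and 52.2% after loess. These shares are also the background of the class counts after scaling given below. The median of all genes lay between -0.03 and 0.02 after these alternatives. The probe-set spread of 0.34 was exceeded by 18 of the 34 genes (52.9%), 12 towards external and 6 towards internal carotid (Fzd4 among the 6 by its brightest probe set only), against 36.2% of all genes. These comparisons were not matched for signal. The 34 genes were dimmer, with a median signal of 142 beside 189 over all genes with a value, and ratios ran with signal, as given below. All 18 kept their sign in each of up to 9 alternatives that gave them a value. That was largely set beforehand, since they were picked for lying more than 0.34 from 0. A changed floor, too, cannot turn the sign of a ratio. The 7 genes whose sign turned under an alternative were Wnt6, Wnt9a, Fzd2, Fzd3, Ryk, Sfrp2 and Sfrp4, none of which was more than 0.06 from 0.

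**Figure D1:**
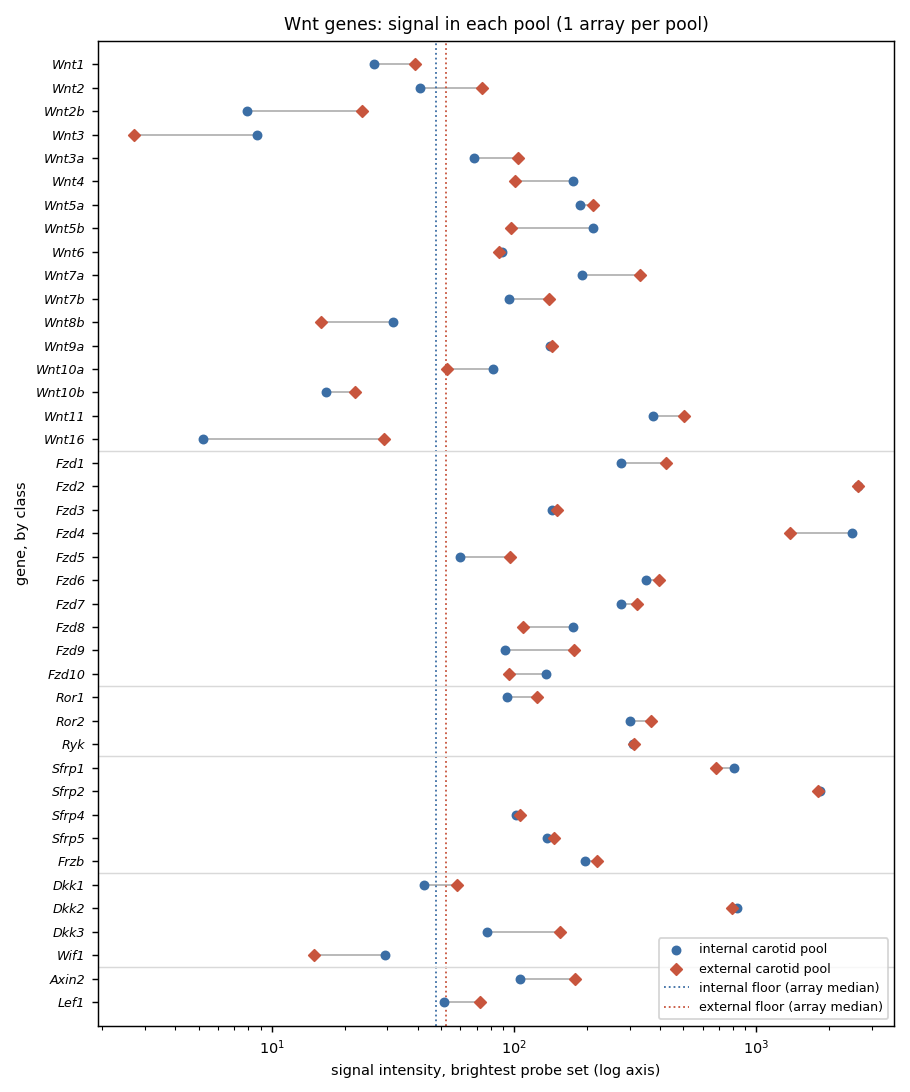
Signal of each gene's brightest probe set (x axis, log scale, arbitrary intensity units) in the internal (circles) and external (diamonds) carotid pool, 1 array each, with genes grouped by class on the y axis and dotted lines at the floors of 47.5 and 52.3. Most pairs of points lie close together, Wnt5b shows 212 against 97.0, and 7 genes lie left of both floors.

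Ligands pointed both ways. Of 17 ligand genes 11 had a value, 7 above 0 and 4 below, with a median of 0.18, and 6 above 0 after each scaling alternative. Wnt5b, a ligand known to act largely without beta-catenin and to be made in cartilage and limb mesenchyme, had a signal of 212 in the internal and 97.0 in the external pool. This 2.19-fold difference (log2 ratio -1.13) was the 1 difference past 2-fold. It was read from a probe set marked as open to cross-hybridisation, and the other Wnt5b probe set, at 23.6 and 11.8, lay under both floors with the same direction. The call was lost with a pseudocount, where the log2 ratio was -0.80, at a 75th percentile floor, where the bound was -0.47, and had no value without that probe set.

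Wnt4, which acts in kidney, gonad and muscle development, had the next lowest ratio among ligands. Its signals were 176 in the internal and 101 in the external pool, 1.74-fold apart (log2 ratio -0.80). A further Wnt4 probe set read 73.2 and 38.9, a bound of -0.49 on the log2 scale, so both probe sets lay on the same side. Wnt10a, a ligand of ectodermal structures such as teeth, read 81.6 and 52.7 (log2 ratio -0.63), with the external signal almost at its floor. In the same pools the skeletal muscle markers had a median of -2.14, and their part in these 3 ligand ratios was not tested.

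The sequence before the annotated starts of Wnt5b and Wnt4 is shown because these ligands stood lowest of those with a value. RefSeq (GRCm38.p6) holds 3 starts for Wnt5b on the minus strand of chromosome 6. The 250 bases before the first and the last of them, and before the Wnt4 start on the plus strand of chromosome 4, run 5' to 3' as follows, with capitals marking CTTTGAT, a motif of Tcf/Lef factors.
Wnt5b, first start, chr6:119544348-119544597, minus strand: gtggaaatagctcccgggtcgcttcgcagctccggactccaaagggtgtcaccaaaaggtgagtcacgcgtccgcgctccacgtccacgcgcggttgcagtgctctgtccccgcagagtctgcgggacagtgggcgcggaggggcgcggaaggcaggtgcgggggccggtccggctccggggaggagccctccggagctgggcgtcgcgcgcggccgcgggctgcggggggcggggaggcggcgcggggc
Wnt5b, last start, chr6:119449387-119449636, minus strand: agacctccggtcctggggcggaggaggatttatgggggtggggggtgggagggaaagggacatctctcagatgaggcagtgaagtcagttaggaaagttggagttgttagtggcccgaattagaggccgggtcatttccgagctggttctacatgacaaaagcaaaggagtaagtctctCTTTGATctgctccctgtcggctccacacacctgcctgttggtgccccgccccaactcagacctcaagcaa
Wnt4, chr4:137277385-137277634, plus strand: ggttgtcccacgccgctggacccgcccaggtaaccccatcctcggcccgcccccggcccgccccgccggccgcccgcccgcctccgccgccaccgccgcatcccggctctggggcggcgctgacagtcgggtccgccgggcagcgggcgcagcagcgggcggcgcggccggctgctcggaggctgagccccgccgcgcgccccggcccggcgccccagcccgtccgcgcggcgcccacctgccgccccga
The windows of the first Wnt5b start and of Wnt4 were rich in G and C, at 78.0% and 84.3% of 300 bases, and the last Wnt5b start had 55%. The motif match lay 71 bases before that last start (first base at -71). Which start gave the RNA on the arrays was not measured.

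Wnt7a, a ligand that guides synapse formation and brain vessel growth, had the highest ratio among ligands, with 192 in the internal and 331 in the external pool (1.73-fold, log2 ratio 0.79). Its other probe sets read 8.6 and 5.8, and 0.7 and 1.3, far under the floors, so the value rests on 1 of 3 probe sets. Wnt3a, a strong activator of beta-catenin, read 68.5 and 104 (log2 ratio 0.60), and Wnt7b, which like Wnt7a acts on brain endothelium, read 95.1 and 140 (log2 ratio 0.55). Wnt2, a ligand of lung and heart mesenchyme, read 41 and 74.0, a difference of at least 1.56-fold towards external carotid. General neuronal markers stood at a median of 1.90 here, and their part in the Wnt7a, Wnt7b and Wnt3a ratios was not tested.

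The ligands best known for action on axons and migrating cells, Wnt5a and Wnt11, differed by less than 1.5-fold at every probe set measured. Wnt5a read 187 internally and 212 externally, a log2 ratio of 0.18, and a further probe set read 127 and 174, a log2 ratio of 0.45. Wnt11, a relative that acts on cell movement, read 374 and 504 (log2 ratio 0.43). Both Wnt5a ratios lay on the external side, 1 of them past the probe-set spread. Wnt9a, a ligand of joints, at 141 and 144 (log2 ratio 0.02), fell below 0 after all 3 scaling alternatives. Wnt6, made in surface ectoderm, read 89.5 and 87.0 (log2 ratio -0.04), but 52.8 and 103 (log2 ratio 0.96) at a probe set open to cross-hybridisation, so its direction depends on the probe set.

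The 6 ligand genes without a value are given only as signals, all under both floors. Wnt1, a signal of the midbrain and neural crest, read 26.5 in the internal and 38.9 in the external pool. Wnt2b, a ligand of lung and eye, read 7.9 and 23.5, and Wnt3, needed for gastrulation, 8.7 and 2.7. Wnt8b, a forebrain ligand, read 31.7 and 16. Wnt10b and Wnt16, both known for roles in bone, read 16.8 and 22.1, and 5.2 and 29.1. At this signal a difference is not detectable, and with no floor Wnt2b and Wnt16 would pass 2-fold towards external and Wnt3 towards internal carotid. The arrays therefore show no more than that these ligands were not above the median signal in either pool.

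Frizzled receptors, the seven-pass receptors that bind Wnt through a cysteine-rich domain, all had a value. Their median was 0.12, with 7 of 10 above 0, but 5 of 10 after centring and 6 of 10 after quantile normalization or loess, and 0 passed 2-fold. Fzd9, a receptor of neural and bone precursor cells, read 91.8 in the internal and 176 in the external pool, 1.92-fold apart (log2 ratio 0.94), from its only probe set. Fzd5, which acts in eye, gut and placental vessels, read 59.7 and 95.9 (log2 ratio 0.68), and Fzd1, a receptor that can couple to beta-catenin, read 277 and 424 (log2 ratio 0.61). These 3 stood highest.

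Fzd4, the receptor for Norrin that builds retinal and ear vessels, was the receptor whose probe sets disagreed most. Its brightest probe set read 2478 in the internal and 1375 in the external pool, 1.80-fold apart (log2 ratio -0.85). A further one read 293 and 345 (log2 ratio 0.24), on the other side of 0, and the third lay under both floors at 23.2 and 27.9. The median of the 2 measured ratios was -0.31. The direction of Fzd4 therefore depends on the probe set, and values given for it elsewhere are those of the brightest one. The endothelial markers had a median of 0.07 in the same pools, or -0.01 after centring.

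Fzd8 and Fzd10 lay on the internal side. Fzd8, a receptor used in head and kidney development, read 175 and 109 (log2 ratio -0.68), and 98.6 and 77.1 (log2 ratio -0.35) at its other probe set, both past the probe-set spread. Fzd10 read 136 and 95.5 (log2 ratio -0.51), and its further probe set lay under the floors with the opposite order, 16.2 and 29.8. Fzd2, a receptor of mesenchyme, was the nearest to equal, at 2632 and 2633 (log2 ratio 0.00, or -0.08 after centring and 0.17 after quantile normalization), and its other probe sets gave -0.01 and -0.11. Fzd3, which is needed for the growth of sympathetic and other axon tracts, read 144 and 150 (log2 ratio 0.06), with 0.30 and 0.27 at 2 further probe sets. All 3 Fzd3 ratios lay under the probe-set spread, and the brightest fell below 0 after centring, quantile normalization and loess. Fzd6, a planar polarity receptor, and Fzd7, a receptor of muscle and epithelial stem cells, had log2 ratios of 0.17 and 0.22. A dimmer Fzd6 probe set read 42.4 and 81.5, a bound of 0.78 towards external carotid. A dimmer Fzd7 probe set read 53.2 and 17.4, towards internal carotid.

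The receptors that signal without beta-catenin differed by less than 1.5-fold. Ror1 and Ror2, receptor kinases that bind Wnt5a, read 93.6 and 125 (log2 ratio 0.41) and 300 and 369 (log2 ratio 0.30), internal first. Ryk, a pseudokinase through which Wnt5a can repel axons, read 310 and 311 (log2 ratio 0.01), with -0.24 at a further probe set, and its sign turned after every scaling. Of these 3 genes, Ror1 alone was past the probe-set spread. At their brightest probe sets, Wnt5a and these 3 receptors had log2 ratios between 0.01 and 0.41, and over all measured probe sets between -0.24 and 0.45.

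**Figure D2:**
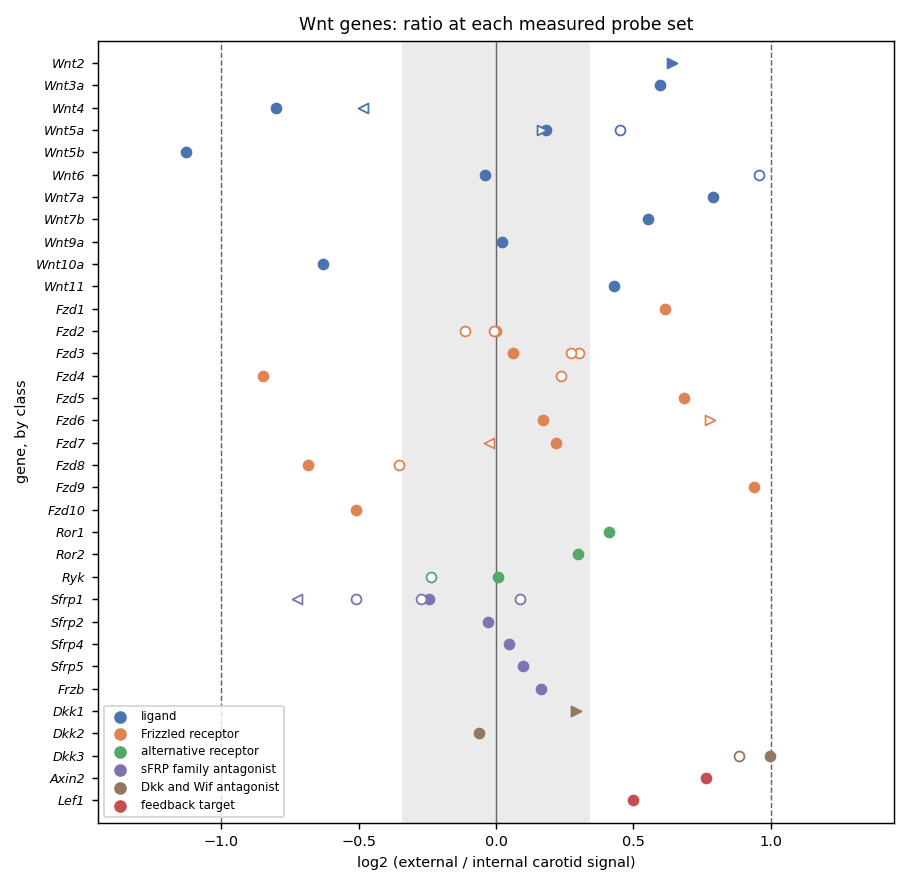
The log2 external over internal ratio (x axis) at every measured probe set of the 34 genes with a value (y axis, coloured by class), with filled symbols for the brightest probe set, open symbols for others, triangles for lower bounds, a grey band of 0.34 on each side of 0 for the probe-set spread and dashed lines at 2-fold. Wnt5b alone lies beyond a dashed line, Dkk3 reaches the other at 0.998, and the Fzd4 and Wnt6 probe sets lie on opposite sides of 0.

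Agreement between probe sets was checked where 2 or more were measured on both arrays, which held for 9 of the 41 genes. They shared a sign in 4 (Wnt5a, Fzd3, Fzd8 and Dkk3) and differed in sign in 5 (Wnt6, Fzd2, Fzd4, Ryk and Sfrp1). Over all genes 2046 of 4315, or 47.4%, shared a sign. The spread between probe sets of these 9 genes, 0.33 over 22 probe sets, was like that of all genes, 0.34.

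Secreted Frizzled-related proteins, which bind Wnt outside the cell, had log2 ratios from -0.24 to 0.16 at their brightest probe sets. Sfrp2, made by many mesenchymal tissues, read 1827 in the internal and 1792 in the external pool (log2 ratio -0.03), a sign that turned after quantile normalization and loess. Sfrp4 read 102 and 106 (0.05), Sfrp5 137 and 147 (0.10) and Frzb, an antagonist of cartilage, 197 and 220 (0.16). None of the 5 passed the probe-set spread at its brightest probe set, and their median was 0.05, or -0.04 after centring. Sfrp1, which also acts on axon growth, read 809 and 683 (log2 ratio -0.24). Its further probe sets gave -0.51, -0.27 and 0.09 where both signals were measured, and a bound of -0.72 where the external signal, 20.8, lay under its floor. Thus 4 of 5 Sfrp1 probe sets lay on the internal side.

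Dickkopf proteins bind the Lrp co-receptors and block the beta-catenin branch. Dkk3, the divergent member with little of that activity, stood highest of all 34 genes. It read 77.5 in the internal and 155 in the external pool, 1.997-fold apart (log2 ratio 0.998), just under the threshold, and 63.8 and 118 (log2 ratio 0.89) at its other probe set. Both probe sets thus put it on the external side, and the ratio was 0.90 to 0.92 after the scaling alternatives, but at a 75th percentile floor the bound was 0.09. Neurons also make Dkk3, and the part of neuronal RNA (marker median 1.90) in this ratio was not tested. Dkk2, which can also activate the pathway, read 829 and 793 (log2 ratio -0.06). Dkk1, the classic Lrp6 blocker, read 42.6 and 58.1, at least 1.22-fold towards external carotid. Wif1, which binds Wnt directly, lay under both floors at 29.2 and 14.9.

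The feedback targets Axin2 and Lef1 both lay on the external side. Axin2, a scaffold that promotes beta-catenin breakdown and is a common readout of the pathway, read 105 in the internal and 179 in the external pool, 1.70-fold apart (log2 ratio 0.76). Its other probe set, at 16 and 28.3, was under the floors with the same order. Lef1, a DNA-binding partner of beta-catenin and a target of it, read 51.3 and 72.4 (log2 ratio 0.50), and 36.3 and 39.4 at a probe set under the floors. Both stayed on the external side after each scaling alternative, Axin2 at 0.68 after all 3. At a 75th percentile floor the Axin2 bound was 0.30 and Lef1 had no value.

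Sequence before the Axin2 start is shown because this gene is the pathway's usual readout, with shorter stretches of the members whose windows hold a Tcf/Lef motif before the start. CTTTGAT and CTTTGTT were searched on both strands in windows from 250 bases before to 50 after each RefSeq start (GRCm38.p6), and matches are in capitals, as read on the gene's strand.
Axin2, chr11:108920099-108920348, plus strand: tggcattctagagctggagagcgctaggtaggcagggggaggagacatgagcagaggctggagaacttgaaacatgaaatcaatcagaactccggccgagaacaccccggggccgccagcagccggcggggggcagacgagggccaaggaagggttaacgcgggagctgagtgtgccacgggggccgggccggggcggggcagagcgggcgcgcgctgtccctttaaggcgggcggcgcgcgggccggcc
Fzd7, chr1:59482006-59482034, plus strand: tccacagagaaAACAAAGcgcgctattgg
Wnt11, chr7:98835050-98835078, plus strand: gacgtgggcggATCAAAGcgacggtccgc
Dkk1, chr19:30549577-30549605, minus strand: tcccatcccggCTTTGTTgtcttccctga
Of 31 genes with a window in the table, 5 held a match, these 3 with Wnt5b above and Wnt3 just after its start. By window that was 5 of 37, against 9.33% of all 32851 windows. The Axin2 window held neither motif. Log2 ratios of the 4 with a value were 0.22 for Fzd7, 0.43 for Wnt11, a bound of 0.29 for Dkk1 and -1.13 for Wnt5b, so they lay on both sides of 0.

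Ratios on these arrays ran with signal, from a median of 0.17 in the dimmest of 10 equal groups of probe sets to -0.19 in the brightest. Each of the 32 genes with a ratio was therefore placed among the roughly 687 probe sets of like signal. The 4 genes Wnt5b, Wnt10a, Fzd4 and Wnt4 lay under the 5th percentile of their groups, with 0.73%, 2.18%, 2.33% and 3.35% of probe sets lower, Fzd4 by its brightest probe set only. Dkk3, Wnt7a and Fzd9 lay over the 95th percentile, with 98.3%, 97.1% and 96.9% lower. Axin2 and Fzd1, both at 94.3%, and Fzd8, at 5.09%, were just inside. The other 22 genes lay between, and by construction 10% of probe sets lie outside these limits.

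**Figure D3:**
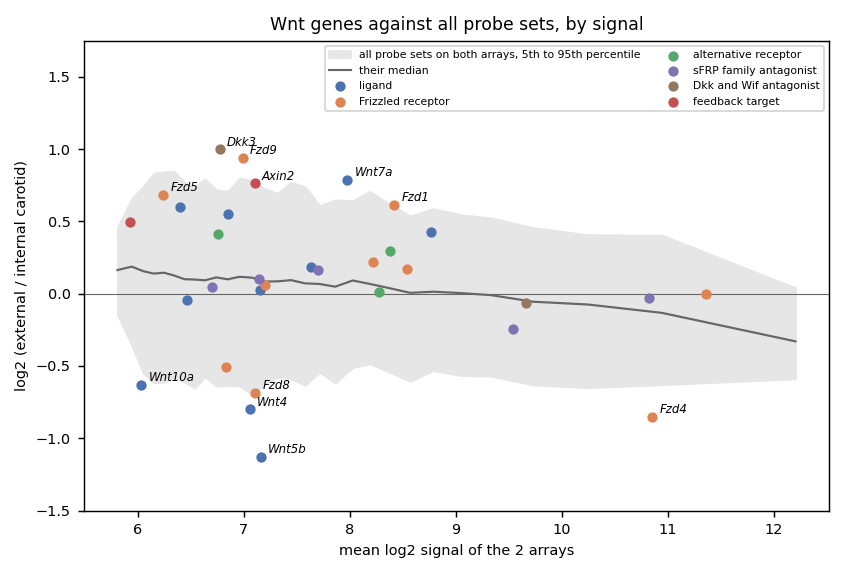
The log2 ratio (y axis) against the mean log2 signal of both arrays (x axis) for the 32 genes with a ratio, coloured by class, over the median (line) and the 5th to 95th percentile range (grey) of every probe set above both floors. The line falls from left to right, Wnt5b at -1.13 and the brightest Fzd4 probe set at -0.85 lie below the grey range, and Dkk3 at 0.998 lies above it.

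The rest of the pathway was read from a list of 102 further symbols, of which 97 had a probe set and 79 a ratio or bound. Past 2-fold were 1 towards external carotid, Celsr3, and 0 towards internal carotid, against 2.1% and 1.47% of all genes. The median was 0.04 beside 0.06 over all genes, with 44 above 0 and 35 below. Celsr3, a cadherin-like receptor needed for axon tracts including sympathetic ones, read 2.6 in the internal and 119 in the external pool, a difference of at least 2.51-fold. Its 1 probe set kept this call in 8 of 9 alternatives and lay under both floors when these were at the 75th percentile. Next came Apc2, a relative of Apc found in neurons, at 70.5 and 137 (log2 ratio 0.96), and Ccn4, a secreted matrix protein and beta-catenin target, at 341 and 624 (log2 ratio 0.87). Beside these stand the general neuronal markers, 11 of 13 past 2-fold in the same direction, whose part in Celsr3 and Apc2 was not tested. Lowest were Shisa2, which holds Frizzled in the endoplasmic reticulum, at 221 and 127 (log2 ratio -0.80), Amer1, a scaffold of the beta-catenin destruction complex, at 412 and 257 (-0.68), and Gpc3, a cell-surface proteoglycan, at 904 and 618 (-0.55).

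The 3 genes of ligand release and the feedback and target genes are described next. Of the release genes, Porcn, which adds the lipid to Wnt, had a log2 ratio of 0.61, Wls, which carries Wnt to the surface, of 0.49, and Notum, which removes the lipid, of 0.03, though Notum fell below 0 after every scaling and a further Wls probe set gave -0.11. Among feedback and target genes, Axin2 and Lef1 included, 11 of 14 were above 0 with a median of 0.34, where 56.1% of all genes were above 0, and 10 of 15 after each scaling alternative, with medians of 0.14 after centring, 0.21 after quantile normalization and 0.22 after loess. Ccnd1, a cell cycle driver, had log2 ratios of 0.72 to 1.06 at its probe sets, Apcdd1 of 0.43 to 0.67, and Nrarp of 0.64 and -0.28. The 3 below 0 were Fst (-0.30), Nkd2 (-0.10) and Bambi (-0.05). Ccn5 (0.04) and Myc (0.09) lay near 0, and Ccn5 fell below it after every scaling. Many of these genes also answer to other signals, and none of the 14 passed 2-fold at its brightest probe set.

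Cytoplasmic transducers had a median of -0.08 over 17 genes, which was -0.16 after centring, 0.02 after quantile normalization and 0.01 after loess, and its members ran from -0.68 to 0.96. Ctnnb1, the gene of beta-catenin itself, read 3554 and 3425 (log2 ratio -0.05), a sign that turned after quantile normalization and loess. Nuclear factors had a median of -0.14 over 11 genes, or -0.23 after centring, and ran from -0.50 to 0.68. The Tcf factor gene Tcf7l2 read 1175 and 829 (log2 ratio -0.50), though its probe sets ranged from -0.86 to 0.29. The R-spondin system, secreted signals and receptors that raise Frizzled at the surface, had a median of 0.22 over 7 genes, 6 of them above 0. After centring, quantile normalization and loess the median was 0.13, 0.09 and 0.08, with 5 of 7 above 0 each time. Rspo2 read 157 and 258 (log2 ratio 0.71), or 0.11 at its other probe set. Planar polarity and other genes that work without beta-catenin had a median of 0.15 over 17 genes, 11 of them above 0 and 9 after centring. The co-receptor and membrane genes had a median of -0.12 over 4 genes, and the further antagonists of -0.02 over 8, or -0.10 after centring and 0.04 after quantile normalization. Apart from Celsr3, Apc2, Ccn4, Shisa2, Amer1 and Gpc3, the genes named in the pathway list were picked after their values were seen.

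**Figure D4:**
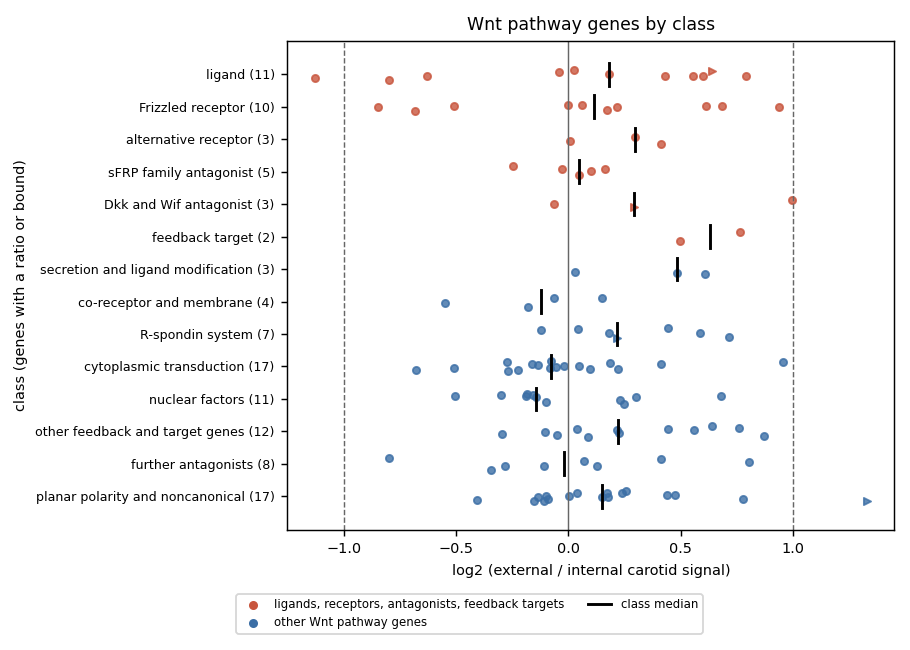
The log2 external over internal ratio (x axis) for genes with a ratio (circles) or lower bound (triangles), by class on the y axis with the number of genes in brackets, black bars at class medians and dashed lines at 2-fold. Only Wnt5b, at -1.13, and Celsr3, with a bound of 1.33, lie beyond 2-fold, and the class medians lie between -0.14 and 0.63.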

How the data were processed

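Signals were deposited by the authors as linear intensity values per probe set, and the submitters' processing notes name MAS5 and GCOS 1.4. The scaling target and genome build are not given in the sources used here. The 2% trimmed mean was 150 on both arrays, and no further scaling was applied. Of 45101 probe sets, 64 were controls and left out. Of the rest, 34945 carried 1 gene in the platform annotation, 932 several and 9160 were not listed. Symbols were updated by gene number through RefSeq (GRCm38.p6). A gene was read from the probe set with the highest mean log2 signal, and a bound pointing against the measured side gave no fold, which left 12408 of 18193 genes with a value.

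All 41 members are named. Of the other pathway genes the 3 highest and 3 lowest follow a rule. Members and lists were chosen with earlier results of these data known. Of 11 marker lists, medians not given above were 2.30 for sympathetic neurons, 0.63 for Schwann cells and neural crest, -0.18 for fibroblasts, 0.56 for cartilage, -0.03 for epithelium, -0.54 for macrophages and -0.47 for erythroid cells. Scaling, floor, pseudocount, probe-set choice and fold threshold were varied one at a time, with a loess span of 0.3. The steps were tested on simulated data. Calculations used pandas 2.3.3 and numpy 2.4.6 under Python 3.11.15, loess came from statsmodels 0.14.6, and figures were drawn with matplotlib 3.10.9.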

Additional observations from a re-analysis of the deposited data

How the results depend on the processing

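The count of Wnt genes at least 2-fold apart, 1 of 34, was also 1 of 34 after each of the 3 scaling alternatives and for probe-set medians. At a 25th percentile floor it was 1 of 40. Of all genes, 202 passed towards external and 233 towards internal carotid of 12499 after centring. In the same order, 203 and 219 of 12569 passed after quantile normalization, 198 and 224 of 12560 after loess, and 217 and 150 of 12435 for probe-set medians. At the 25th percentile floor 761 and 474 of 15863 passed, so the unchanged count of 1 stood beside a larger background. It was 0 at a 75th percentile floor, with the pseudocount, without probe sets open to cross-hybridisation and at 3-fold. With no floor it was 4 of 41, where 1490 of all 18193 genes passed towards external and 1088 towards internal carotid. At 1.5-fold it was 13 of 34, and all genes were not counted at 1.5-fold or 3-fold. The median log2 ratio stayed above 0 under all 9 alternatives, between 0.09 and 0.23. That of all genes lay between -0.03 and 0.11 under them, and was below 0 after centring only. The number of genes whose measured probe sets shared a sign, 4 of 9, was 9 of 19 at a 25th percentile floor, 1 of 4 at a 75th percentile floor, 12 of 27 with no floor and 18 of 27 with the pseudocount, where other probe sets enter or leave. These alternatives for agreement between probe sets were added after seeing the data. Of 291 single-gene values under alternatives, 282 moved by less than 0.34 or kept their call, and 7 moved further. The remaining 2, both Wnt5b, fell under 2-fold, and 0 reversed a call. Wnt5b alone had a call at 2-fold, so that 0 was largely set beforehand. The sign of 7 genes did turn under an alternative, as given above. No paired analysis was possible because each group has 1 array. Precision is limited by the number of arrays, and signals near the floors of 47.5 and 52.3 carry little information on a difference.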

Other observations

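Some Wnt ligand genes sit next to each other on a chromosome, with 0 protein-coding genes between them in the RefSeq table. Wnt6 and Wnt10a, on chromosome 1, had log2 ratios of -0.04 and -0.63, the first of which depends on the probe set. Wnt3a and Wnt9a, on chromosome 11, had 0.60 and 0.02. Wnt10b and Wnt1, on chromosome 15, lay under both floors. These are 3 pairs read on 1 array per pool, and no test was made.

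Promoter windows of the Wnt genes were richer in G and C than those of genes at large. The median over 37 windows of 31 genes was 66.7% G and C with 24 CpG pairs in 300 bases, against 52.7% and 7 over 32851 windows. The highest shares were 86.3% for Wnt3a, 84.3% for Wnt4 and 83.3% for Wnt9a, and Wnt9a had 58 CpG pairs. The lowest among genes with 1 window was Wnt8b, with 48.3% and 6 CpG pairs, whose probe sets lay under both floors in both pools.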
